A study of Equus caballus with 45 samples.

Results

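The MAP kinase phosphatases are dual-specificity phosphatases (DUSP) that switch off MAP kinases. Transcripts of 9 of these genes, DUSP1, DUSP2, DUSP4, DUSP5, DUSP6, DUSP7, DUSP8, DUSP10 and DUSP16, were read by symbol from counts of 20881 horse genes, and all 9 were found in the tables of both the mesenchymal stromal cells (MSC) and the joint cells. The family was chosen from earlier results of the same files, in which DUSP4 was lower in macrophages given medium of STING-activated MSC and DUSP5 differed between media in synoviocytes. Values from those comparisons, for all 9 genes, are therefore given as descriptions without a test. Levels are library-size-scaled counts (CPM, by the TMM method). They are not divided by gene length, so a gene was compared with itself across libraries and not with the other genes.

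MAP kinases are activated by dual phosphorylation and relay growth factor, cytokine and stress signals to the nucleus. The phosphatases remove those phosphates, and many of their genes are themselves induced by the kinases, so that their transcripts are read as part of a negative feedback loop. DUSP1, DUSP2, DUSP4 and DUSP5 encode inducible nuclear enzymes, of which DUSP5 is selective for ERK. DUSP6 and DUSP7 encode cytoplasmic enzymes selective for ERK, and DUSP8, DUSP10 and DUSP16 encode enzymes that prefer JNK and p38. In macrophages DUSP1 is known as a brake on inflammatory cytokine production and DUSP2 as a phosphatase of haematopoietic cells.

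The MSC libraries came from bone marrow cells of 3 horses aged 3 to 4 years (donors PC, 99 and 92), each left untreated, given the TLR3 agonist poly I:C, given the STING agonist 2′3′-cGAMP, or labelled CpG, an arm that the sources used here do not describe (n = 3 in each group, 12 libraries). The agonists were used for 2 h, at 10 ng/mL by the labels and 10 μg/mL by the study's methods. By the methods the activated MSC were then washed, and they were lysed after 24 h more in growth medium. Synoviocytes, chondrocytes and macrophages came from 1 healthy horse, with the macrophages grown from blood monocytes in M-CSF, and gave 11 libraries each. In 9 of the 11, IL-1β and TNF-α were followed for 24 h by conditioned medium (CM) from MSC of donors PC, ORC and AG1, which had been left resting (resting MSC-CM), or activated through TLR3 (TLR-MSC-CM) or through STING (STING-MSC-CM), with n = 3 each. Of the remaining libraries, 1 had received the cytokines alone and 1 nothing. By the methods the treated joint cells were washed after those 24 h and lysed after another 24 h in fresh medium. Transcripts were thus read 24 h after the agonist, or the cytokines and MSC medium, had been removed. The methods name 3 MSC donor horses in all, and the sources used here do not say whether ORC and AG1 are donors 99 and 92 under other names. The labels give each cytokine at 20 ng/mL for synoviocytes and 10 ng/mL for macrophages, for which the methods give 20 ng/mL. The 3 libraries of a medium are therefore 1 culture source under media of 3 MSC donors, and p-values measure the spread between those libraries and not between horses. The libraries without MSC medium have no replicate.

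Total counts per library ran from 23525704 to 54103873, and 3 counts, taken as the floor, corresponded to 0.0557 to 0.129 CPM. The labels were checked against marker genes before the phosphatases were read. The library labelled TLR3 from donor 92 held the interferon-induced gene MX1 at 3.66 CPM, within the 1.43 to 6.81 CPM of untreated MSC, whereas the other TLR3 libraries held 513 and 635 CPM and the STING libraries 528 to 928 CPM. In chondrocytes the 3 libraries with ORC medium stood apart: IER3, an immediate-early gene, was at 127 to 216 CPM in them, at 674 to 1609 CPM in the other medium libraries, at 1334 CPM with cytokines only and at 41.7 CPM with no addition. The cartilage gene COL2A1 reached at most 0.381 CPM in chondrocytes, while ACAN ran from 6.05 to 96.6 CPM in them and from 0.468 to 3.52 CPM in synoviocytes. The 7 chondrocyte markers summed to 157 to 731 CPM in chondrocytes, 147 to 342 CPM in synoviocytes and 211 to 866 CPM in MSC. The synoviocyte markers (5 of 6 in the tables) summed to 581 to 863 CPM in chondrocytes and 639 to 1054 CPM in synoviocytes. The 4 MSC markers summed to 611 to 1804 CPM in MSC and 1261 to 1982 CPM in macrophages. These sums overlapped and did not separate the cell types. Macrophage cultures held 3 T cell transcripts (CD3E, CD3D and CD2) with a summed level of 174 to 290 CPM in all 11 libraries, against at most 0.0604 CPM in the other cell types. A list of 3 neutrophil genes summed to 270.4 to 581 CPM in macrophage cultures and at most 0.481 CPM elsewhere. Nearly all of that was CSF3R, which monocytes also express, while ELANE was at 3.02 to 5.31 CPM and MPO at 0 to 0.638 CPM. Macrophage markers of these cultures (8 of 8 detected) summed to 7301 to 10987 CPM, against 10.3 to 38.3 CPM in chondrocytes.

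Macrophages carried by far the most DUSP2, DUSP4, DUSP5 and DUSP6 transcript. DUSP2 was near the floor in stromal cells, with medians of 0.252 CPM in synoviocytes, 0.222 CPM in chondrocytes and 0.435 CPM in MSC, and had a median of 35.0 CPM in macrophages (lowest 20.3, highest 80.2). DUSP4 had medians of 2.46 CPM in synoviocytes, 4.70 CPM in chondrocytes, 12.6 CPM in MSC and 97.5 CPM in macrophages. The ranges of its 4 cell types did not overlap, from 1.38 to 3.24 CPM in synoviocytes up to 67.5 to 148 CPM in macrophages, although the highest synoviocyte library (3.24) lay next to the lowest chondrocyte library (3.25). DUSP5 had medians of 1.78, 2.62, 2.73 and 73.5 CPM in synoviocytes, chondrocytes, MSC and macrophages, and its ranges overlapped among the first 3. DUSP6 was lowest in chondrocytes (4.83 to 9.40 CPM), higher in synoviocytes (10.5 to 17.7) and MSC (12 to 31.3), which overlapped, and highest in macrophages (178 to 243). The MSC and joint cell tables were scaled separately, so levels of MSC beside joint cells were not tested.

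DUSP1 and DUSP8 ran the other way. DUSP1 was highest in synoviocytes, with a median of 254 CPM (lowest 190.2, highest 281), followed by chondrocytes with 141 CPM (129 to 159) and macrophages with 80.2 CPM (57.6 to 89.8). These 3 ranges did not overlap, and MSC (64.4 to 155 CPM) overlapped both macrophages and chondrocytes. DUSP8 was lowest in macrophages (median 4.98 CPM, 3.30 to 9.33) and highest by median in MSC (15.3 CPM, 6.54 to 24.4), with overlap throughout. DUSP7, DUSP10 and DUSP16 had their highest or joint highest medians in macrophages. DUSP7 rose in median from 9.61 CPM in MSC and 9.87 CPM in synoviocytes to 12.3 CPM in chondrocytes and 16.9 CPM in macrophages. DUSP10 had medians of 7.37 CPM in chondrocytes, 10.8 CPM in synoviocytes, 27.9 CPM in macrophages and 27.9 CPM in MSC. DUSP16 had medians of 5.77 CPM in MSC, 8.58 CPM in synoviocytes, 12 CPM in chondrocytes and 19.8 CPM in macrophages, and the macrophage range (15.9 to 26.4) lay above the others.

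**Figure D1:**
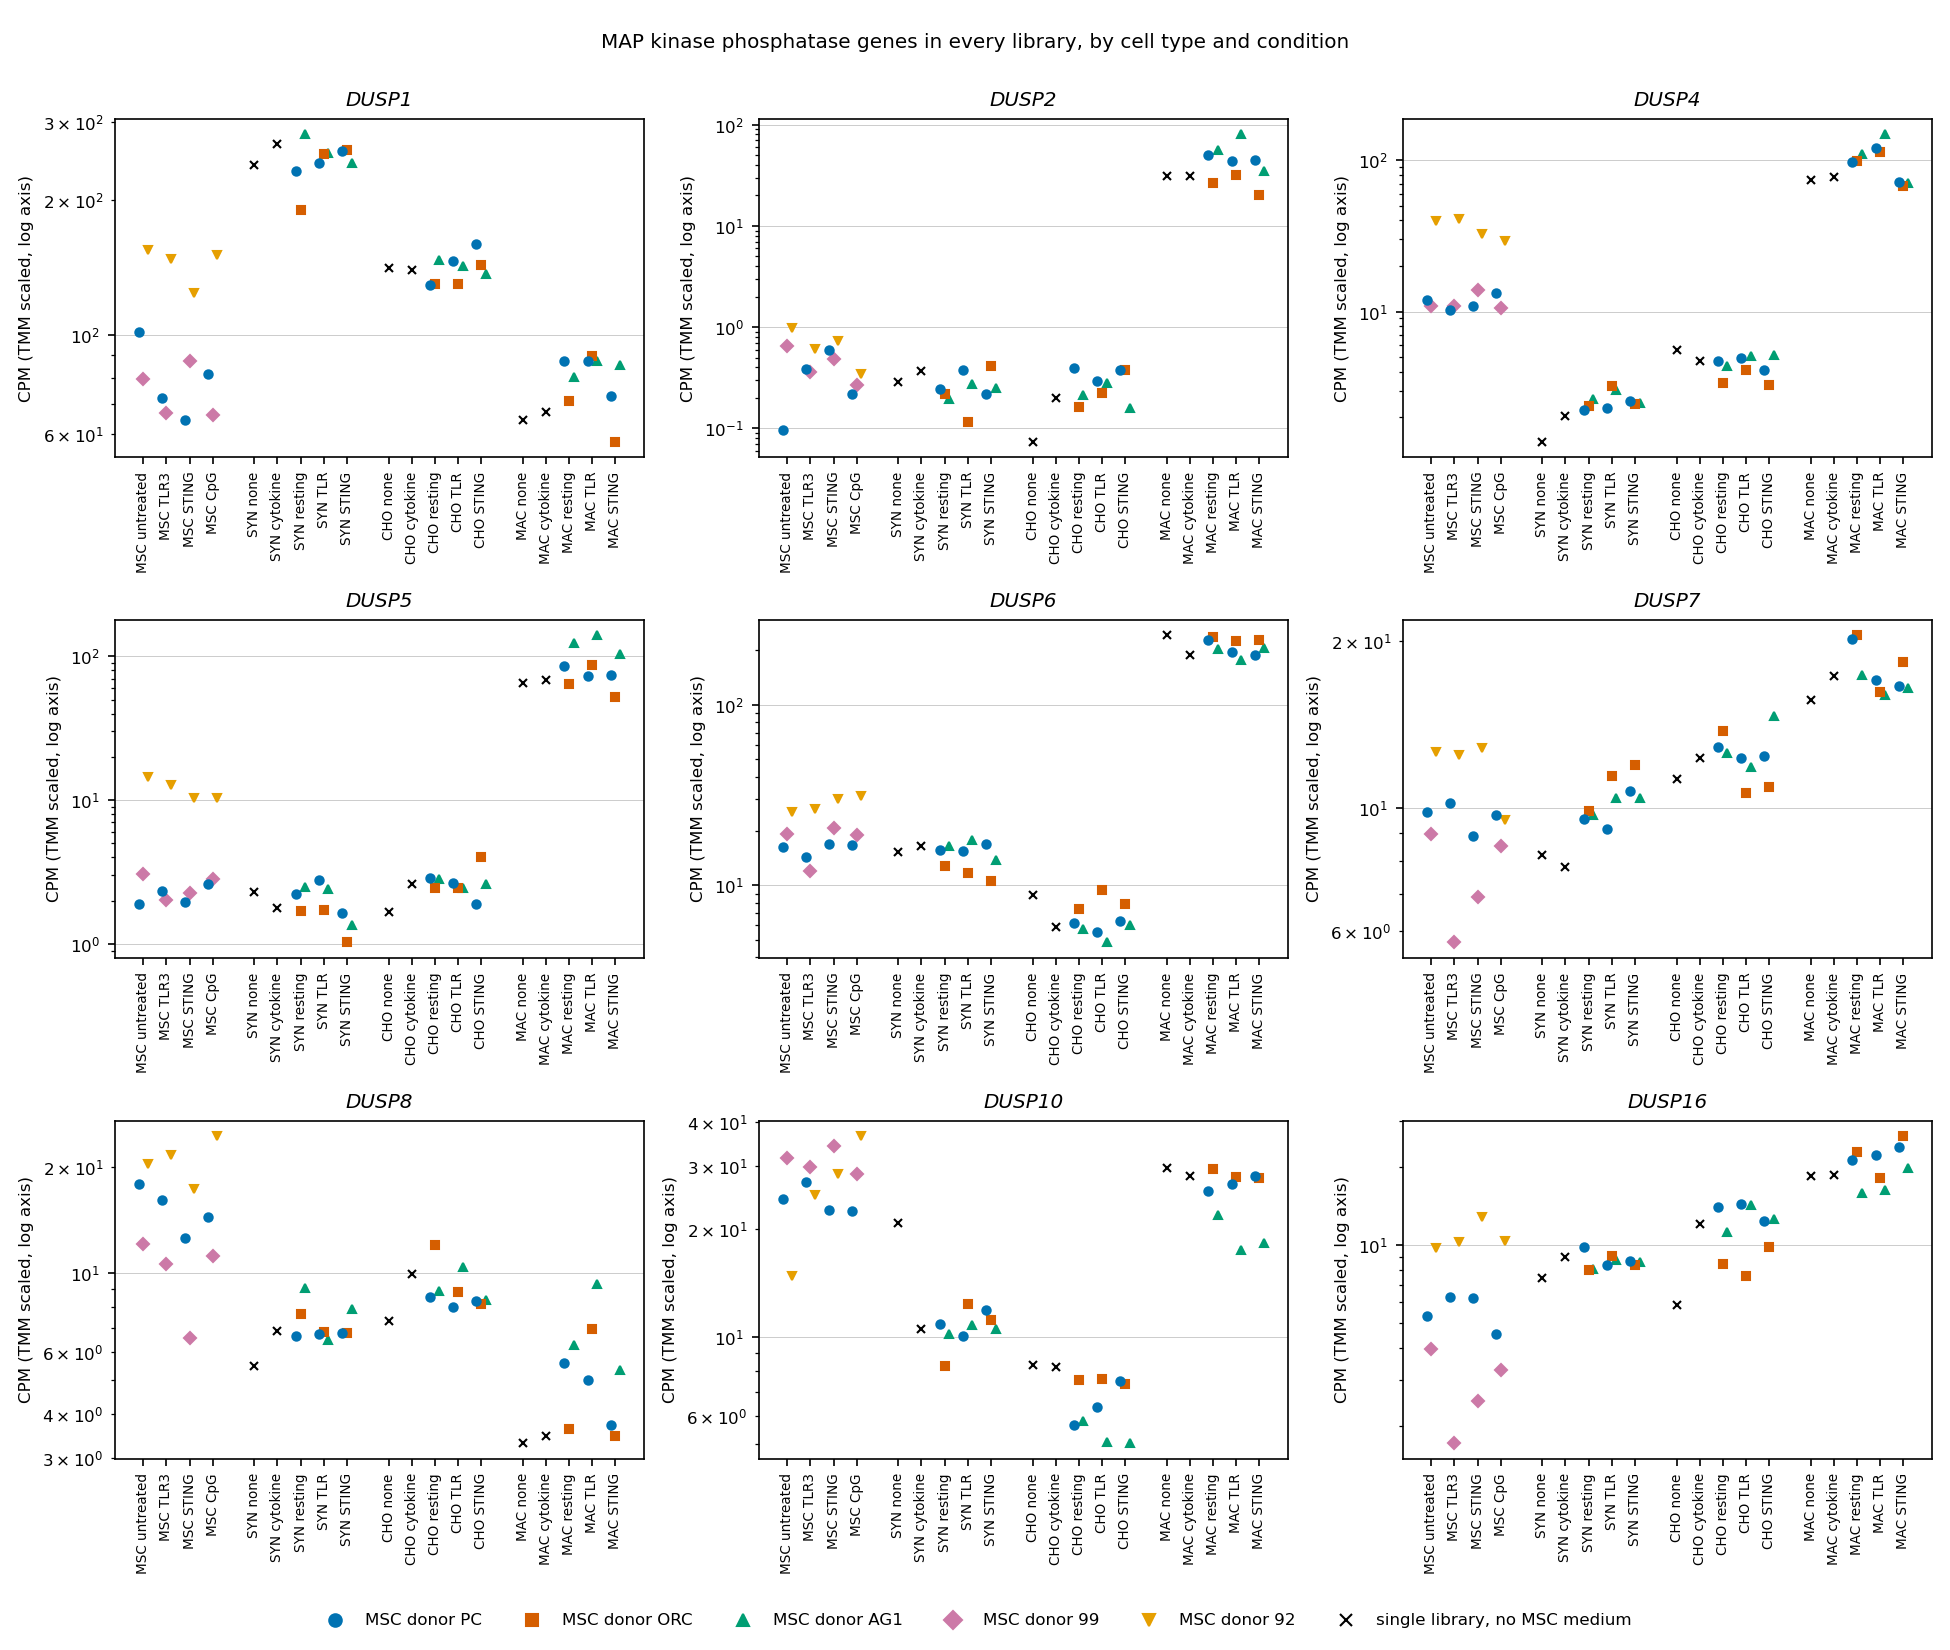
CPM (log axes, a separate scale for each gene) of the 9 phosphatase genes in all 45 libraries, by cell type (SYN synoviocytes, CHO chondrocytes, MAC macrophages) and condition. Each point is 1 library, with its shape and colour giving the MSC donor, and crosses are the unreplicated libraries without MSC medium; DUSP2, DUSP4, DUSP5 and DUSP6 are highest in the macrophage libraries, and DUSP1 is highest in synoviocytes.

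The cell types were compared with resting MSC-CM (edgeR's quasi-likelihood test, 15599 genes tested). The macrophage and synoviocyte libraries used here are also in the comparisons that chose DUSP4 and DUSP5. The tests of DUSP4 and DUSP5 between cell types are therefore not independent of that choice. Against synoviocytes, macrophages were higher in 7 of the 9 genes and lower in 2, with an adjusted p-value under 0.05; of all genes, 36.6% were higher and 35.1% lower. DUSP2 was at 26.4, 50.3 and 55.7 CPM in the 3 macrophage libraries and at 0.195, 0.216 and 0.247 CPM in the 3 synoviocyte libraries (6 to 7 counts each), which gave a log2 fold change (± SE) of 7.62 ± 0.39 with an adjusted p of 2.85e-08. DUSP4 was at 97.5, 98.4 and 109.7 CPM against 2.22, 2.38 and 2.64 CPM, a log2 fold change of 5.38 ± 0.15 (adjusted p = 4.79e-10). All macrophage libraries were thus above all synoviocyte libraries for both genes. DUSP5 was at 64.5, 85.2 and 123 CPM against 1.69, 2.22 and 2.48 CPM, a log2 difference of 5.40 ± 0.26 (adjusted p = 1.92e-08). DUSP6 was at 204, 229 and 237 CPM against 12.9, 15.7 and 16.6 CPM, a log2 fold change of 3.88 ± 0.14 (adjusted p = 2.36e-09). DUSP1 was lower in macrophages, at 71.1, 80.2 and 87.4 CPM against 190.2, 232 and 281 CPM, a log2 fold change of −1.57 ± 0.15 (adjusted p = 3.63e-06). The differences of the remaining 4 genes were smaller. DUSP7, DUSP10 and DUSP16 were higher by 0.98, 1.38 and 1.19 on the log2 scale, and DUSP8 was lower by a log2 fold change of −0.60 ± 0.23 (adjusted p = 0.0381; 0.0522 with the MSC donor as a block). The DUSP8 call was also lost without the synoviocyte library with AG1 medium (adjusted p = 0.135) or ORC medium (0.0713), or the macrophage library with ORC (0.115) or PC medium (0.0617).

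Against chondrocytes the 9 genes differed in the same directions, 7 higher and 2 lower in macrophages, beside 36.6% and 34.9% of all genes. DUSP6 had the larger difference here, a log2 fold change of 5.10 ± 0.15 (adjusted p = 5.91e-10), with chondrocyte libraries at 5.77, 6.18 and 7.41 CPM. The log2 fold changes were 7.39 for DUSP2, 4.59 for DUSP4, 5.04 for DUSP5, 2.00 for DUSP10, 0.81 for DUSP16 and 0.55 for DUSP7, and they were −0.78 for DUSP1 and −0.93 for DUSP8. Adjusted p-values of the 9 genes were at most 0.00406. T cell transcripts, absent from chondrocytes (0 counts of CD3E, CD3D and CD2), were present in every macrophage library, and T cells also express several of these phosphatases. How much they added to the macrophage levels was not tested. In bulk RNA a difference in the number of cells of a type and a difference in transcript per cell cannot be told apart.

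Chondrocytes and synoviocytes, both stromal, differed in 5 of the 9 genes (2 higher in chondrocytes, 3 lower), beside 8.31% of all genes higher and 9.84% lower. DUSP6 was lower in chondrocytes (log2 fold change −1.22 ± 0.13, adjusted p = 0.000154), and so was DUSP1, at 129, 129.7 and 147 CPM (−0.79 ± 0.15, adjusted p = 0.00385). DUSP10 was lower as well, at 5.66, 5.82 and 7.57 CPM against 8.29, 10.2 and 10.9 CPM (−0.62 ± 0.17, adjusted p = 0.0283). DUSP4 was higher in chondrocytes, at 3.38, 4.34 and 4.72 CPM (0.79 ± 0.14, adjusted p = 0.00375), and DUSP7 was higher, at 12.5, 12.8 and 13.7 CPM against 9.55, 9.70 and 9.87 CPM (0.43 ± 0.11, adjusted p = 0.0233). The groups did not overlap for any of these 5 genes, and the share of all genes without overlap was not counted. The calls of both DUSP7 and DUSP10 were lost, leaving 3 of the 9, without the AG1 or the PC library of either cell type (adjusted p of 0.0545 to 0.0846 for DUSP7 and 0.0859 to 0.111 for DUSP10), and that of DUSP7 without the ORC synoviocyte library (0.0635). Without the chondrocyte library with ORC medium, which stood apart, 6 of the 9 genes were called, beside 3759 of all 15510 genes tested. DUSP16 was the gene added (log2 fold change 0.55 ± 0.18, adjusted p = 0.0489).

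**Figure D2:**
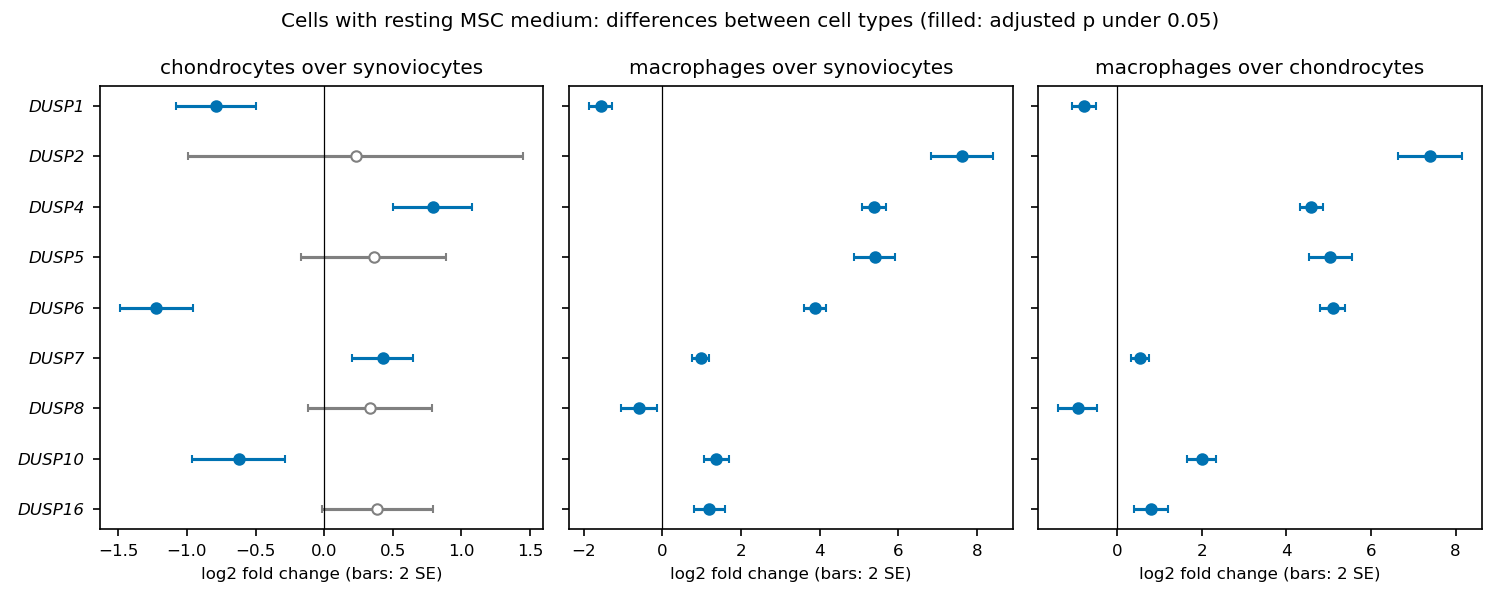
Log2 fold changes of the 9 genes between cell types given resting MSC-CM (x axis; 3 libraries of each type), with bars of 2 SE and filled points where the adjusted p-value was under 0.05. All 9 points are filled in both macrophage comparisons, with DUSP2 at 7.62 and 7.39, and 5 are filled between chondrocytes and synoviocytes.

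The kinases and feedback genes around the phosphatases were listed with earlier results known and were read from the same fits. Of 13 immediate-early genes tested, 8 were higher and 2 lower in macrophages than in synoviocytes, where 36.6% and 35.1% of all genes were, with a median log2 fold change of 2.05 beside 0.04 over all genes. FOS and JUN, which encode subunits of the AP-1 transcription factor, were higher by log2 fold changes of 3.59 ± 0.43 and 2.05 ± 0.10, ATF3 by 5.87 ± 0.33 and IER2 by 2.99 ± 0.19, while MYC (−1.44 ± 0.18) and FOSL1 (−1.85 ± 0.26) were lower. Of the other ERK feedback genes (9 tested), the inhibitors SPRY1, SPRY2, SPRED1 and SPRED2 were higher, SPRY2 by 2.59 ± 0.20, and ERRFI1, ETV4 and ETV5 were lower, ERRFI1 by a log2 fold change of −4.87 ± 0.20. The median of those 9 was 0.21, so the list had members on both sides. Of the other MAP kinase phosphatases (6 tested), PTPN7, DUSP22 and PTPRR were higher in macrophages and DUSP14 was lower (−1.89 ± 0.17). PTPN7 encodes a phosphatase of leukocytes.

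Of 10 MAP kinases, 3 were higher in macrophages than in synoviocytes and 2 were lower, both at or below the shares of all genes (36.6% and 35.1%), with a median log2 fold change of 0.06. MAPK11 (p38β) was higher by 1.88 ± 0.27 and MAPK12 (p38γ) was lower by a log2 fold change of −1.65 ± 0.30. Of 7 MAP2 kinases, MAP2K1, MAP2K3, MAP2K4 and MAP2K5 were higher and MAP2K2 was lower, with a median of 0.35. Against chondrocytes 9 immediate-early genes were higher and 4 lower (median 2.54), 3 MAP kinases were higher and 2 lower (0.15), 3 MAP2 kinases were higher and 2 lower (0.05), 4 feedback genes were higher and 4 lower (0.15), and 3 other phosphatases were higher and 1 lower (2.17), beside a median of 0.04 over all genes, of which 36.6% were higher and 34.9% lower. Between chondrocytes and synoviocytes 3 of 10 MAP kinases (MAPK3, MAPK11 and MAPK12), 1 of 7 MAP2 kinases (MAP2K6), 1 of 13 immediate-early genes (IER3), 2 of 9 feedback genes (ETV4 and SPRY4) and 1 of 6 other phosphatases (DUSP14) were higher in chondrocytes, and EGR1 and ERRFI1 were lower, beside 8.31% and 9.84% of all genes. MAP2K6, a kinase that activates p38, was higher by a log2 fold change of 4.12 ± 0.72 (adjusted p = 0.0029). ETV4, an ETS factor induced by ERK, was higher in chondrocytes by a log2 fold change of 3.46 ± 0.28 (adjusted p = 2.02e-05).

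In macrophages DUSP4 was a gene on which the family was chosen, and its levels by MSC medium are a description. It was at 97.5, 98.4 and 109.7 CPM with resting MSC-CM of donors PC, ORC and AG1, at 120.1, 113 and 148 CPM with TLR-MSC-CM and at 71.4, 67.5 and 70.8 CPM with STING-MSC-CM. The 3 media did not overlap, and within each donor the order was the same, TLR above resting above STING. How many of all genes separate the 3 media was not counted. STING-MSC-CM gave 0.645, 0.686 and 0.733 of the resting level in AG1, ORC and PC, and the fitted log2 fold change was −0.54 ± 0.11 (SE), with −0.86 ± 0.11 against TLR-MSC-CM. As DUSP4 was chosen by this fall, no test is given. The macrophages without MSC medium held 77.0 CPM with cytokines and 73.7 CPM with no addition. Relative to the library with cytokines only, the mean was 1.32 times as high with resting MSC-CM, 1.65 times with TLR-MSC-CM and 0.908 times with STING-MSC-CM, so the level with STING-MSC-CM lay closest to that of cells without medium.

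TLR-MSC-CM against resting MSC-CM shares the resting libraries with the comparison that chose DUSP4, so DUSP4 is given without a test. It was higher by 0.32 ± 0.11 on the log2 scale. DUSP7 was lower by a log2 fold change of −0.24 ± 0.10 and passed an unadjusted threshold of 0.05, as did 2.13% of the 15052 genes tested. After adjustment no gene was called, 0% of all (0 by DESeq2 and 0 with the donor as a block). The adjusted p was 0.999 for each phosphatase other than DUSP4. DUSP7 was at 20.1, 20.5 and 17.3 CPM with resting MSC-CM and at 16.9, 16.2 and 16.0 CPM with TLR-MSC-CM in PC, ORC and AG1, without overlap. The share of all genes without overlap was not counted. With STING-MSC-CM it was at 16.6, 18.3 and 16.4 CPM. DUSP7 was thus highest with resting MSC-CM in each donor.

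Summed T cell transcripts were at 183 to 213 CPM with resting MSC-CM, 187 to 290 CPM with TLR-MSC-CM and 174 to 192 CPM with STING-MSC-CM, and at 211 and 214 CPM in the libraries without medium. The highest value of both the T cell sum and DUSP4 was in the library with TLR-MSC-CM of AG1. The libraries without medium, 1 of each kind, held DUSP4 at 77.0 CPM with cytokines only and at 73.7 CPM with no addition. The part of T cells in the DUSP4 levels was not tested.

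STING-MSC-CM against TLR-MSC-CM was tested for the 8 genes other than DUSP4. DUSP8 was at 3.72, 3.47 and 5.31 CPM with STING-MSC-CM and at 4.98, 6.95 and 9.33 CPM with TLR-MSC-CM of PC, ORC and AG1 (98 to 387 counts), lower in 3 of 3 donors, with a log2 fold change of −0.77 ± 0.28. It passed the unadjusted threshold, as did 6.60% of all genes, and not the adjusted one (adjusted p = 0.736; 0.0588 with the donor as a block). DUSP1 was lower in 3 of 3 donors as well, at 72.8, 57.6 and 85.6 CPM against 87.2, 89.8 and 87.2 CPM (log2 fold change −0.29 ± 0.14, adjusted p = 0.736; 0.168 with the block). Its groups did not overlap, and the share of all genes without overlap was not counted. DUSP16 ran the other way, at 23.9, 26.4 and 19.8 CPM against 22.2, 18.2 and 16.3 CPM (0.31 ± 0.16, adjusted p = 0.736; 0.140 with the block). The log2 fold change was −0.65 ± 0.39 for DUSP2 (adjusted p = 0.759; 0.0750 with the block) and −0.39 ± 0.32 for DUSP5 (0.799; 0.108 with the block). For DUSP6, DUSP7 and DUSP10 it was 0.06, 0.07 and 0.05. No gene was called without the block, 0% of all, while 33 were called by DESeq2 and 336 with the block. None of the 8 phosphatases was called by any of these 3 fits.

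DUSP2 and DUSP5 differed by the donor of the medium. DUSP5 was at 104 to 140.2 CPM with AG1 medium, 73.4 to 85.2 CPM with PC medium and 52.1 to 87.0 CPM with ORC medium, so all 3 AG1 libraries were above all others. DUSP2 was at 20.3 to 31.7 CPM with ORC medium and at 35.0 to 80.2 CPM with the others. DUSP10 was lowest with AG1 medium, 17.5 to 21.9 CPM against 25.6 to 29.5 CPM. How many of all genes set the medium of a donor apart without overlap was not counted. A test for the donor, added after the data were seen, called 4 of the 9 genes, DUSP2 (adjusted p = 0.00315), DUSP5 (0.00135), DUSP10 (0.00522) and DUSP16 (0.0435), beside 15.4% of all genes. The count was 3 to 5 of the 9 with 1 library left out, beside 980 to 1996 of all genes. Cells with AG1 medium also held less of the macrophage receptor CSF1R, 406 to 649 CPM against 667 to 873 CPM with the other media, and less CD163, 59.6 to 166 CPM against 283 to 612 CPM. The macrophage markers CD14 (16.0 to 30.6 against 16.6 to 32.4 CPM) and CD68 (3235 to 3654 against 3603 to 4253 CPM) overlapped. The part of the CSF1R and CD163 differences in the phosphatase levels was not tested.

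**Figure D3:**
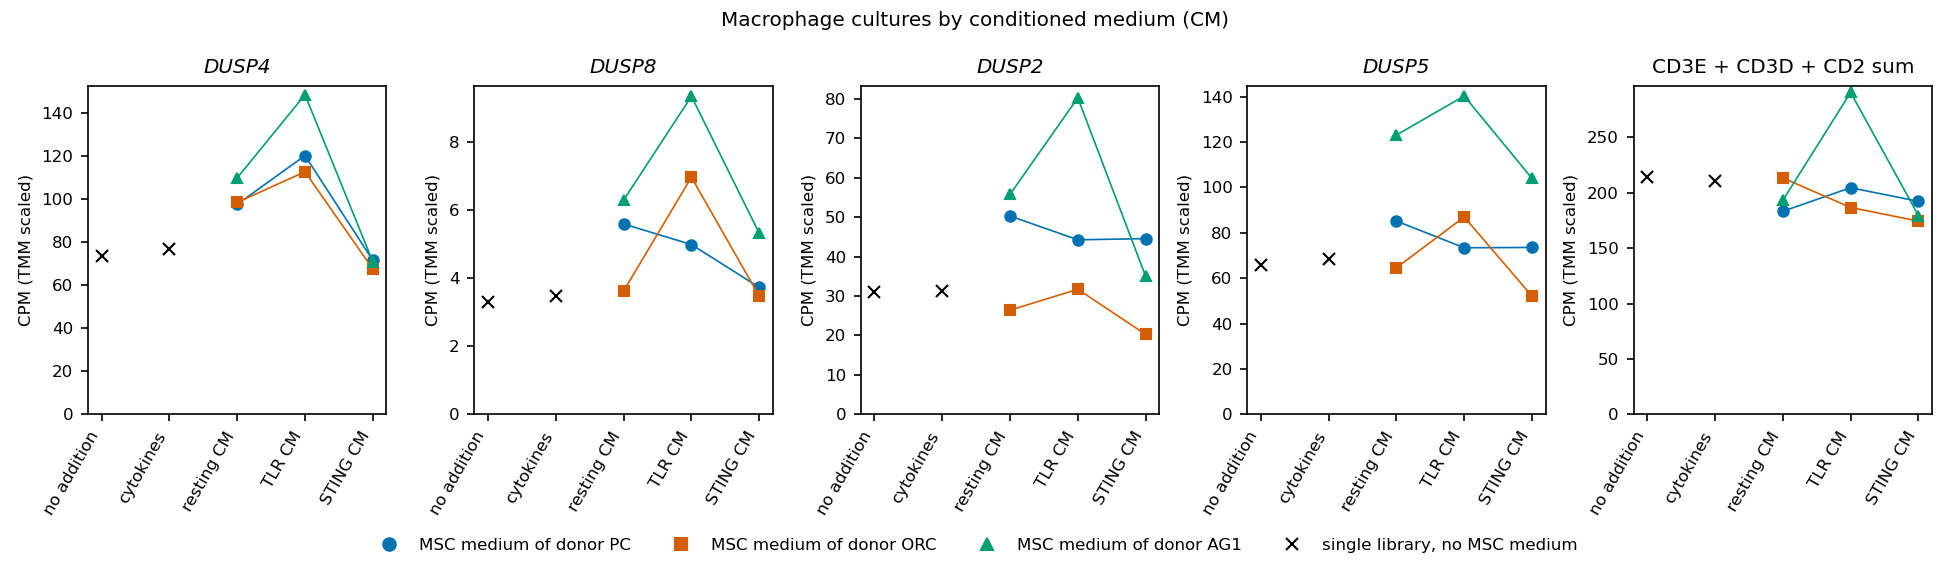
CPM of DUSP4, DUSP8, DUSP2 and DUSP5 and the summed CPM of 3 T cell transcripts in the 11 macrophage libraries (y axes from 0) by conditioned medium; lines join the media of 1 MSC donor and crosses are unreplicated libraries without MSC medium. DUSP4 is at 67.5 to 71.4 CPM in the STING-MSC-CM libraries and at 97.5 CPM or more with the other media, while DUSP5 is highest with AG1 medium under each kind of medium.

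In synoviocytes DUSP5 was the other gene on which the family was chosen, and its values are a description. It was at 2.22, 1.69 and 2.48 CPM with resting MSC-CM of PC, ORC and AG1, at 2.77, 1.72 and 2.41 CPM with TLR-MSC-CM and at 1.63, 1.02 and 1.35 CPM with STING-MSC-CM. All 3 STING-MSC-CM libraries lay below all 6 others, the nearest being 1.63 against 1.69 CPM. These levels rest on few reads, 25 to 124 counts per library. STING-MSC-CM gave 0.736, 0.605 and 0.545 of the resting level in PC, ORC and AG1, and the fitted log2 fold change was −0.67 ± 0.26 (SE) against resting and −0.78 ± 0.26 against TLR-MSC-CM. The libraries without medium held 1.78 CPM with cytokines and 2.31 CPM with no addition. For the other 8 genes the log2 fold changes with STING-MSC-CM against resting ran from −0.13 (DUSP6) to 0.38 (DUSP2, at 6 to 11 counts), and DUSP7 was at 10.4 to 11.9 CPM against 9.55 to 9.87 CPM without overlap. How many of all genes separate the synoviocyte media, as DUSP5 and DUSP7 did, was not counted. DUSP4, the gene lower with STING-MSC-CM in macrophages, was at 2.46 to 2.54 CPM with STING-MSC-CM and at 2.22 to 2.64 CPM with resting MSC-CM in synoviocytes. The donor of the medium was tested on the same libraries by which DUSP5 was chosen, so this test is not independent of that choice. It gave no call among the 9 genes by edgeR's test (0% of all genes, 3 genes by DESeq2). DUSP5 and DUSP6 were under the unadjusted threshold, as were 413 of the 14584 genes tested. Without the ORC library with resting MSC-CM the test called DUSP6 (adjusted p = 0.00500) and 710 genes.

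In chondrocytes no change of the 9 genes with the kind of medium was called. The main fit did not pair the libraries of a donor, so its lack of calls does not show that the genes were unchanged. Log2 fold changes with TLR-MSC-CM against resting MSC-CM ran from −0.17 (DUSP7) to 0.18 (DUSP4), those with STING-MSC-CM against resting from −0.24 (DUSP8) to 0.21 (DUSP2), and those between the activated media from −0.16 (DUSP4) to 0.18 (DUSP5). SE were 0.09 for DUSP1 and 0.54 to 0.55 for DUSP2. With STING-MSC-CM against resting, the intervals of 2 SE ran from −0.41 to 0.45 for DUSP4 and from −0.88 to 1.31 for DUSP2. None of the 9 genes was called in any of the 3 comparisons, and none passed an unadjusted threshold of 0.05, which 0.559%, 0.909% and 0.811% of all 14304 genes did (0% after adjustment in each; 0 by DESeq2). Without the 3 libraries with ORC medium the counts of called genes were again 0, and the log2 fold changes ran from −0.32 to 0.25. DUSP7 was at 12.3, 10.6 and 11.8 CPM with TLR-MSC-CM of PC, ORC and AG1 and at 12.8, 13.7 and 12.5 CPM with resting MSC-CM. The change with TLR-MSC-CM was also compared between macrophages and chondrocytes by an interaction term. It called none of the 15853 genes tested (0%; adjusted p = 1 for each member other than DUSP4). Under the unadjusted threshold were 1.74% of all genes and none of those members. DUSP8 had the largest difference, 0.55 ± 0.36 on the log2 scale (higher change in macrophages). DUSP4 had 0.13 ± 0.20, given as a description because it was chosen by a comparison that shares the resting macrophage libraries.

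DUSP16 and DUSP6 set the ORC medium apart in chondrocytes. DUSP16 was at 8.45, 7.56 and 9.83 CPM with resting, TLR and STING medium of ORC, and at 11.2 to 14.3 CPM with the media of PC and AG1. DUSP6 was at 7.41, 9.40 and 7.90 CPM with the ORC media and at 4.83 to 6.37 CPM with the others. Neither gene overlapped between ORC and the other donors, and how many of all genes do so was not counted. DUSP10 did overlap, at 7.37 to 7.62 CPM with the ORC media and 5.03 to 7.53 CPM with the others. The test for the donor called DUSP16 (adjusted p = 0.00117), DUSP6 (0.00793) and DUSP10 (0.0250), 3 of 9 genes, a share near the 40.1% of all genes that were called. Without the ORC library with TLR-MSC-CM 1 of the 9 was called, where fits with 1 library left out called 4057 to 5492 of all genes. On the same libraries the library with no addition lay on the side of the ORC media, with DUSP16 at 5.86 CPM and DUSP6 at 8.89 CPM, and the library with cytokines only on the side of the others, with 12 and 5.90 CPM. IER3, SOX9 and COL11A1 fell into the same order, while DUSP4 and the cartilage gene COMP did not. COMP was at 163 CPM with no addition, 28.8 CPM with cytokines only, 15.9 to 20.6 CPM with the ORC media and 23.2 to 33.2 CPM with the others. DUSP4 was at 5.57 CPM with no addition, 4.70 CPM with cytokines only, 3.25 to 4.13 CPM with the ORC media and 4.12 to 5.19 CPM with the others. The part of whatever set the ORC libraries apart in the phosphatase levels was not tested.

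Cytokines without MSC medium could be read from 1 library against 1 in each cell type, so the ratios carry counting error only, as 95% intervals, and no test of the condition. In chondrocytes DUSP16 was 2.05 times as high with IL-1β and TNF-α as with no addition (480 and 159 counts, interval 1.71 to 2.47), and it was 1 of the 9 genes past a fold of 2, as were 14.0% of all genes. DUSP5 was 1.58 times as high (105 and 45 counts, 1.11 to 2.30), and DUSP6 was 0.664 times as high (0.553 to 0.798). DUSP2 rested on 8 and 2 counts, a ratio of 2.71 (0.541 to 26.2). For the counts of genes past a fold of 2, 0.1 CPM was added to both levels, and DUSP2 then fell short of that fold. In synoviocytes DUSP10 was at 20.8 CPM with no addition and at 10.5 CPM with cytokines, 0.505 times as high (0.438 to 0.582), just under a fold of 2, which 8.52% of all genes passed and none of the 9 did. All 9 synoviocyte libraries with medium also held DUSP10 at 8.29 to 12.3 CPM, so the library with no addition stood alone. In macrophages no gene of the 9 passed a fold of 2, against 5.05% of all genes, and DUSP6 was lower with cytokines, 189 against 243 CPM (0.778 times, 0.749 to 0.809). DUSP1, DUSP2, DUSP4 and DUSP5 differed there by factors of 1.01 to 1.05.

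**Figure D4:**
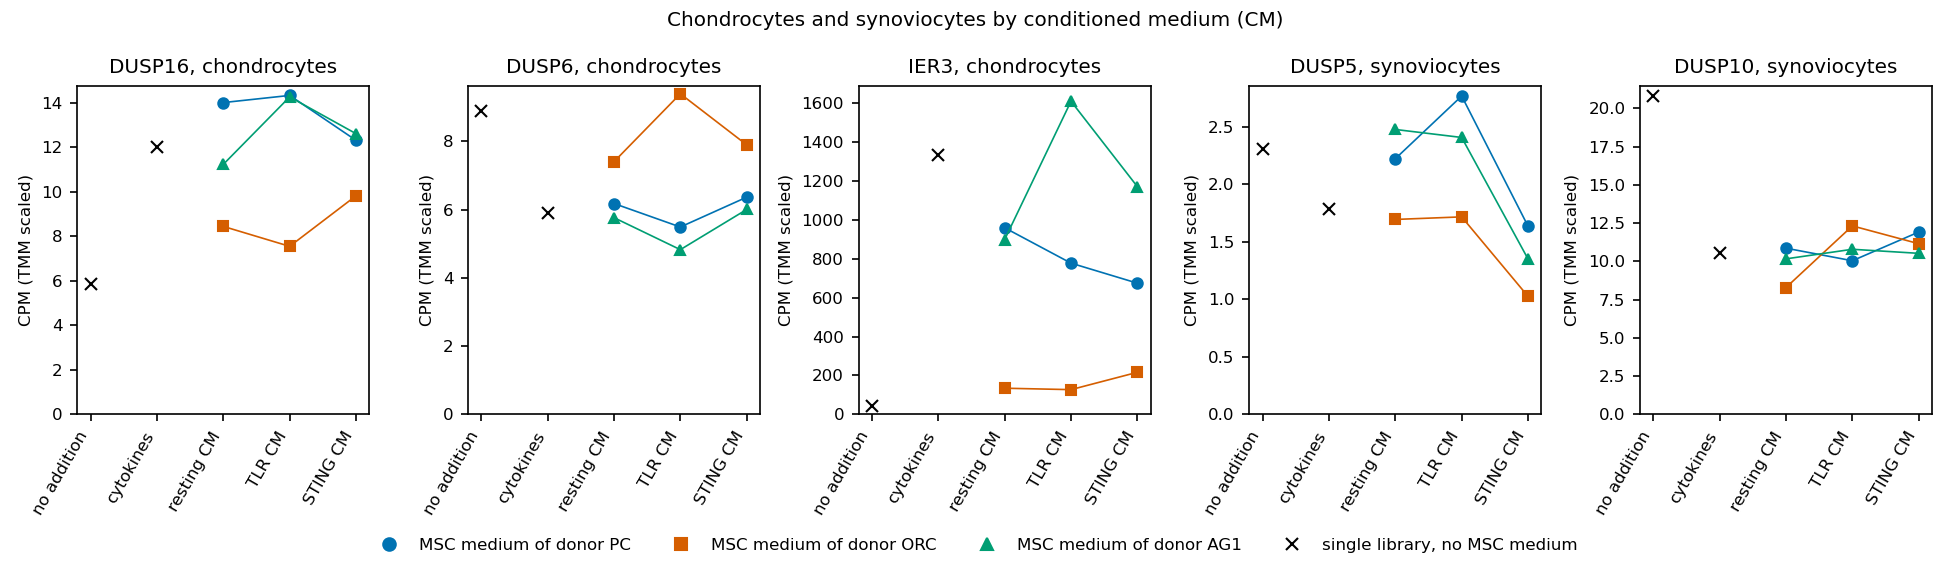
CPM (y axes from 0) of DUSP16, DUSP6 and IER3 in chondrocytes and of DUSP5 and DUSP10 in synoviocytes, by conditioned medium; lines join the media of 1 MSC donor and crosses are unreplicated libraries without MSC medium. The ORC media sit apart from the others for DUSP16 (7.56 to 9.83 CPM) and IER3 (127 to 216 CPM), and DUSP10 is at 20.8 CPM in the synoviocyte library with no addition.

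In MSC no change of the phosphatase genes with the agonists was called, beside a wide spread between the donors. For the TLR3 agonist the log2 fold changes ran from −0.32 (DUSP2) to 0.25 (DUSP10), for the STING agonist from −0.43 (DUSP8) to 0.31 (DUSP10), between the agonists from −0.40 (DUSP8) to 0.43 (DUSP2), and for the libraries labelled CpG from −1.05 (DUSP2, at 8 to 14 counts) to 0.31 (DUSP10). SE ran from 0.28 to 1.04. None of the 9 genes was called in any of the 4 comparisons (adjusted p of 1 for all, 0% of all genes called in each) and none passed an unadjusted threshold of 0.05, against 1.15%, 2.10%, 0.242% and 0.305% of all genes. DESeq2 called 52, 95, 1 and 0 genes in the 4 comparisons, and none of the 9. The fit with the donor as a block called 0, 2, 0 and 0 genes, and none of the 9. Every donor gave each condition, but the main fit did not pair the libraries of a donor, so differences between donors widen its SE. It called no gene, MX1 included, although MX1 was at 528 to 928 CPM with the STING agonist and at 1.43 to 6.81 CPM untreated. Its lack of calls therefore does not show that the phosphatase genes were unchanged. DUSP8 and DUSP6 had the same direction in all donors after the STING agonist. DUSP8 was lower, at 12.6, 6.54 and 17.3 CPM in PC, 99 and 92 against 17.9, 12.1 and 20.3 CPM untreated, with an adjusted p of 0.353 with the donor as a block. DUSP6 was higher, at 16.8, 20.9 and 29.9 CPM against 16.3, 19.3 and 25.3 CPM, with an adjusted p of 0.827 with the block. Leaving out the TLR3 library of donor 92, whose MX1 level was that of untreated cells, gave 51 called genes and again none of the 9, with log2 fold changes from −1.57 (DUSP5) to 0.29 (DUSP10). Between the agonists it gave 0 called genes, log2 fold changes from −0.14 (DUSP8) to 1.16 (DUSP5), and DUSP6 (0.78 ± 0.32) under the unadjusted threshold. Both fits then held fewer libraries of the donor with the highest DUSP5.

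The donors differed. Donor 92 had DUSP5 at 14.4, 12.7 and 10.4 CPM in the untreated, TLR3 and STING libraries, whereas donor PC had 1.91, 2.34 and 1.96 CPM and donor 99 had 3.08, 2.01 and 2.26 CPM. DUSP4 was at 39.5, 40.6 and 32.7 CPM in donor 92, at 11.9, 10.2 and 10.9 CPM in PC and at 10.8, 10.9 and 13.9 CPM in 99. Donor 92 was thus above the others in each condition, by 6.01 and 3.42 times the lowest donor in geometric mean. The CpG libraries, which the test for the donor did not use, also had donor 92 highest for both genes, with DUSP4 at 29.3 CPM in donor 92 against 13.3 and 10.5 CPM. DUSP16 separated all 3 donors in these 9 libraries, at 9.72 to 12.8 CPM in 92, 5.32 to 6.30 CPM in PC and 1.72 to 3.98 CPM in 99. How many of all genes separate the donors was not counted. The test for the donor called 7 of the 9 genes, DUSP1 (adjusted p = 0.00327), DUSP4 (7.36e-05), DUSP5 (3.34e-05), DUSP6 (0.00850), DUSP7 (0.0148), DUSP8 (0.00284) and DUSP16 (0.00164), beside 53.8% of all genes. Without the TLR3 library of donor 92, 5 of the 9 were called. DUSP2 (0.263) and DUSP10 (0.101) were not called. Untreated DUSP10 was lowest in donor 92, at 14.8 CPM against 24.3 and 31.6 CPM, and donor 99 was highest in geometric mean, so this gene did not share the order of DUSP4 and DUSP5.

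**Figure D5:**
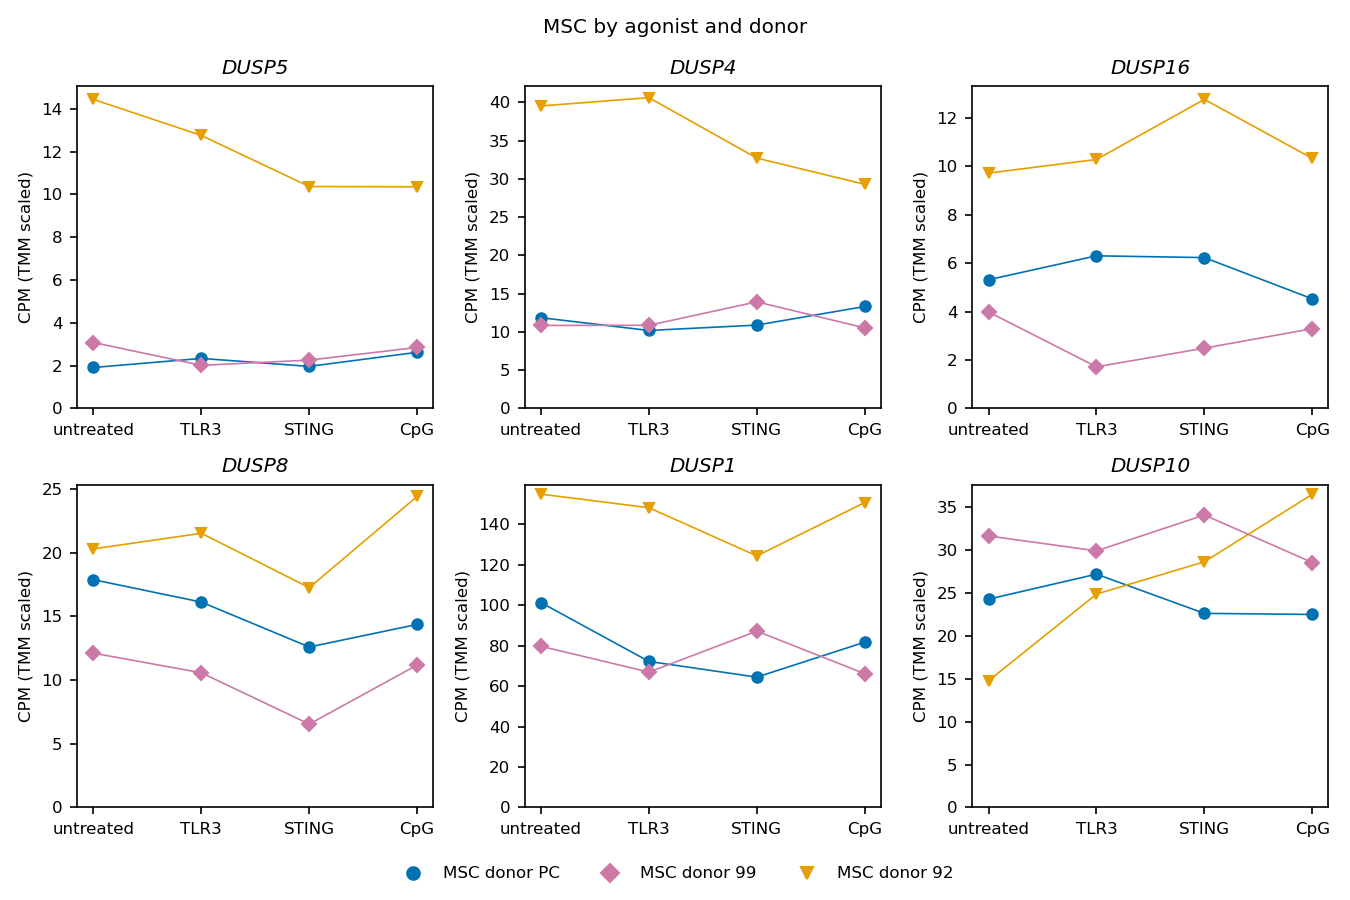
CPM (y axes from 0) of DUSP5, DUSP4, DUSP16, DUSP8, DUSP1 and DUSP10 in the 12 MSC libraries by agonist; lines join the libraries of 1 donor horse. Donor 92 is above the others for DUSP5 (10.4 to 14.4 CPM) and DUSP4 (29.3 to 40.6 CPM) under every condition, and the lines of the donors cross for DUSP10.

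The transcripts most like DUSP1, DUSP4, DUSP5 and DUSP6 were sought over the 33 joint cell libraries, as the Pearson correlation of log2(CPM + 1) after the mean of each cell type was subtracted, among 11587 genes. The libraries share cultures and media, so the values are descriptions. DUSP4 was most like TNFRSF8 (r = 0.82), PLEKHF1 (0.74) and FOXP3 (0.74), DUSP5 most like PPP1R15A (0.78), ST3GAL4 (0.77) and TBXA2R (0.77), DUSP1 most like BMT2 (0.76), TCP11L2 (0.76) and HSPA1A (0.74), and DUSP6 most like SSBP3 (0.73), SGF29 (0.73) and MAGED2 (0.71). FOXP3 dropped to rank 84 with a pseudocount of 0.1 in place of 1, whereas TNFRSF8 stayed at rank 1.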

How the data were processed

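RNA from 12 MSC and 33 joint cell libraries was sequenced. The deposited values are raw read counts per gene: per the labels and methods, the authors used cutadapt 1.12 for trimming, STAR for alignment to the EquCab3.0 build and HTSeq 0.11.0 for counting, and used DESeq2 for their tests. Whether counting used strand is not given in the sources used here. The tables hold 20881 genes, 3970 of them under an Ensembl identifier only.

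Counts were scaled by TMM and tested with edgeR 4.0.16 (R 4.3.3; quasi-likelihood, Benjamini-Hochberg over all genes whose counts summed to 10 or more in the fitted libraries; threshold 0.05), within each table. DESeq2 1.42.0, RLE scaling, other filters on low counts, the MSC donor as a block and leaving out each library were alternatives. The tests for the donor and the chondrocyte fits without ORC medium were added after the data were seen. In synoviocytes and macrophages the tests for the donor used libraries by which the family was chosen, so they are not independent of that choice. The same holds for DUSP4 and DUSP5 in the tests between cell types, which used the libraries with resting MSC-CM. The code recovered known changes when tested on simulated data. Members, lists and the genes named by likeness were chosen with earlier results of these data known.

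Libraries of the same donor number deviated together from their group means in MSC (correlations 0.636 to 0.835), chondrocytes (0.355 to 0.718) and macrophages (0.138 to 0.301), where the number marks the same MSC donor. Depth was 23525704 to 54103873 counts, and intervals cover counting error only. No sequence or coordinate was used. A gene of the kinase list is not reported here by name.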

Additional observations from a re-analysis of the deposited data

How the results depend on the processing

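All alternatives kept the direction of the called differences among the 9 phosphatases. With the MSC donor as a block, DUSP8 in macrophages against synoviocytes missed the threshold (log2 fold change −0.59, adjusted p = 0.0522). The block gave 2 called genes for the STING agonist in MSC, 2 for STING-MSC-CM against resting in chondrocytes and 336 for STING-MSC-CM against TLR-MSC-CM in macrophages, where the fit without it gave 0, and it changed no other call of the 9. In synoviocytes the donor number did not pair the libraries (correlations −0.166 to 0.141). DESeq2 called 52 genes for the TLR3 agonist, 95 for the STING agonist, 1 between the agonists, 3 for the donor in synoviocytes and 33 for STING-MSC-CM against TLR-MSC-CM in macrophages, none of them among the 9. With 1 library left out, the TLR3 agonist gave 0 to 51 genes (51 without donor 92), and the donor test gave 5179 to 9795 genes and 5 to 7 of the 9 in MSC, 0 to 710 genes and 0 to 1 of the 9 in synoviocytes, 4057 to 5492 genes and 1 to 3 of the 9 in chondrocytes, and 980 to 1996 genes and 3 to 5 of the 9 in macrophages. Chondrocytes against synoviocytes gave 1781 to 3759 genes and 3 to 6 of the 9, and macrophages against synoviocytes 8 to 9 of the 9. These fits hold fewer libraries. Otherwise the cause was not tested. On total counts in place of TMM, 3 of 117 group means moved by more than 1 SD: DUSP1 (91.4 CPM) and DUSP7 (17.0 CPM) in macrophages with TLR-MSC-CM and DUSP8 (8.42 CPM) in chondrocytes with STING-MSC-CM. DUSP2 in stromal cells, at 2 to 17 counts in the joint cells, and DUSP5 in synoviocytes are limited by depth.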
